A study of Mus musculus with 40 samples.

Results

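The 10 unfolded protein and amino acid stress genes were followed in subcutaneous stromal vascular cells of mice fed a low fat diet, a high fat diet, or a high fat diet with a herbal formulation. They were chosen by name, and each is a gene whose symbol stands in the gene column of the deposited fold change table: 10 of the 29411 gene names there, carried by 15 probes. The set holds the transcription factors Atf4, Ddit3 (also called CHOP) and Xbp1, the pseudokinase Trib3, the proteins Hspa5 (BiP), Dnajb9, Sdf2l1 and Herpud1 of the endoplasmic reticulum (ER), and the enzymes Asns and Phgdh. When unfolded proteins build up in the ER, the sensors PERK, IRE1 and ATF6 slow translation, splice Xbp1 messenger RNA and switch on chaperones and degradation factors. Lack of amino acids acts through the kinase GCN2, which like PERK phosphorylates the initiation factor eIF2α. Translation of ATF4 then increases, and ATF4 switches on enzymes and transporters of amino acids as well as Ddit3 and Trib3. Fat tissue is known to show ER stress markers in obesity, and both adipocytes and the secretory cells among stromal cells depend on ER folding capacity.

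The series measured total RNA of C57BL/6J mice, weaned at 3 to 4 weeks of age and then fed, on 1-colour Agilent arrays at days 1, 6, 10 and 14 and at weeks 0, 3, 6, 9, 12, 15 and 18 as labelled. LFC was the low fat control diet (11 arrays, days 1 to week 18) and HFC the high fat diet with added sucrose (11 arrays, the same times). HF5 (6 arrays, weeks 3 to 18), HF20 and HF75 (5 arrays each, weeks 3 to 15) received the HFC diet with 5, 20 or 75 µg of the ethnobotanical aqueous formulation Kal-1. Of the 40 arrays 38 were used, because the diet labels of the remaining 2, both of week 18, contradict each other. There was 1 array per diet and time point although the series speaks of 3 biological replicates, the labels do not say how many mice gave the RNA of an array, and a p-value here measures only the spread between single arrays of different times or diets. The series calls the cells both stromal vascular cells and infiltrating macrophages.

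Levels are log2 intensities relative to the array's own 75th percentile, so 0 is the brightness that 75% of probes do not exceed. A probe is well above background where the scanner software marks it so. The macrophage list (Cd68, Adgre1, Csf1r, Lyz2, Cd14, Mrc1, Itgam and C1qa) was well above background in full on 32 of 38 arrays, with mean levels from −1.49 to 2.77. The fibroblast list of 6 genes was so on 34 arrays (median level 4.74) and the endothelial list of 5 genes on 36 arrays (median level 2.06). The 8 adipocyte genes (Adipoq, Plin1, Cidec, Lep, Retn, Cfd, Pck1 and Lipe) were also all well above background on 34 arrays, with a mean level from −5.42 to 5.97. Most arrays thus carried RNA of all these cell types, in amounts that differed widely between arrays. On the array with the fewest, 0 of 8 macrophage, 2 of 8 adipocyte or 2 of 6 fibroblast genes were well above background. In bulk RNA, fewer cells of a type and less RNA per cell cannot be told apart.

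Among the LFC arrays 3 stood apart. The week 3 array was dim, with a 75th percentile intensity of 7.81 and 17.2% of probes well above background, so that Ddit3, Atf4, Xbp1, Sdf2l1 and Dnajb9 had no more than a bound there, entered at its lowest measurable level of −0.02. The day 14 array had 9104 spots marked as outliers and a median rank correlation of 0.471 with the other arrays. The week 18 array had normal brightness, but its adipocyte (−5.42), fibroblast (−5.22), endothelial (−4.73) and skeletal muscle (−6.01) lists were the lowest of all arrays and its neutrophil list (5.16) the highest. A single spot marked as an outlier was dropped for Hspa5 on HFC day 6 and LFC day 10, for Asns on LFC day 10 and HFC week 0, and for Atf4 on LFC week 0. Those genes have no level there. Both day 6 arrays were weak too, with a median signal over background of 2.43 (LFC) and 2.09 (HFC). All other arrays except LFC week 3 were higher. HFC day 6 had a 75th percentile intensity of 159.7, and LFC day 6 had 53.4% of probes well above background. The day 6 arrays were kept.

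All 10 genes were measured well above background on nearly every array. Of the ER proteins, Hspa5, the main ER chaperone of the Hsp70 class, ranged from 2.34 (LFC day 14) to 6.20 (LFC week 15) with a median level of 5.39. Its spot was saturated on 4 arrays (LFC week 0, HF20 week 6, LFC week 15 and HF5 week 15), where the level is a lower bound, and these bounds enter every Hspa5 mean, test and correlation below. Without the LFC arrays of week 3 and day 14, its lowest level was 3.84 (LFC day 6). Herpud1, a membrane protein of ER-associated degradation, stayed between 1.94 and 3.74 on those 36 arrays (median level 3.10). Dnajb9, a cochaperone of Hspa5, ranged from −0.01 to 1.90, and Sdf2l1, which sits in ER chaperone complexes, from −1.55 (LFC week 12) to 2.47 (LFC week 18).

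Of the regulators, Xbp1, the transcription factor made from spliced messenger RNA, ranged from −0.10 to 2.09 on the same 36 arrays, and Atf4 from −0.62 to 2.25. The probes give no measure of Xbp1 splicing or of ATF4 translation. Ddit3, the factor that follows ATF4 in prolonged stress, ranged from −0.59 (LFC week 12) to 1.83 (LFC week 6). Trib3, a pseudokinase that restrains ATF4 and CHOP activity, ranged from −2.05 (LFC day 10) to 3.01 (LFC week 18). Its next highest level, 1.84, was on the dim LFC week 3 array, and without the 3 arrays that stood apart its highest was 0.35 (HF20 week 15).

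The enzymes had the largest standard deviations over the 38 arrays, 1.51 for Asns and 1.19 for Phgdh, against 0.870 or less for the other genes. Asns, which makes asparagine, ranged from 0.52 (LFC week 6) to 5.60 (LFC week 18), and Phgdh, the first enzyme of serine synthesis, from 1.16 (LFC day 14) to 5.70 (HF20 week 15). Without LFC week 3 and day 14 the lowest Phgdh level was 1.61 (HFC week 6). The Asns levels formed separate ranges. On HFC day 1, LFC and HFC day 6, LFC week 12, HF20 weeks 12 and 15, LFC week 18 and the 4 week 9 arrays whose titles hold the letters WS, Asns lay between 4.34 and 5.60, and no other array passed 3.40 (HF5 week 15).

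**Figure D1:**
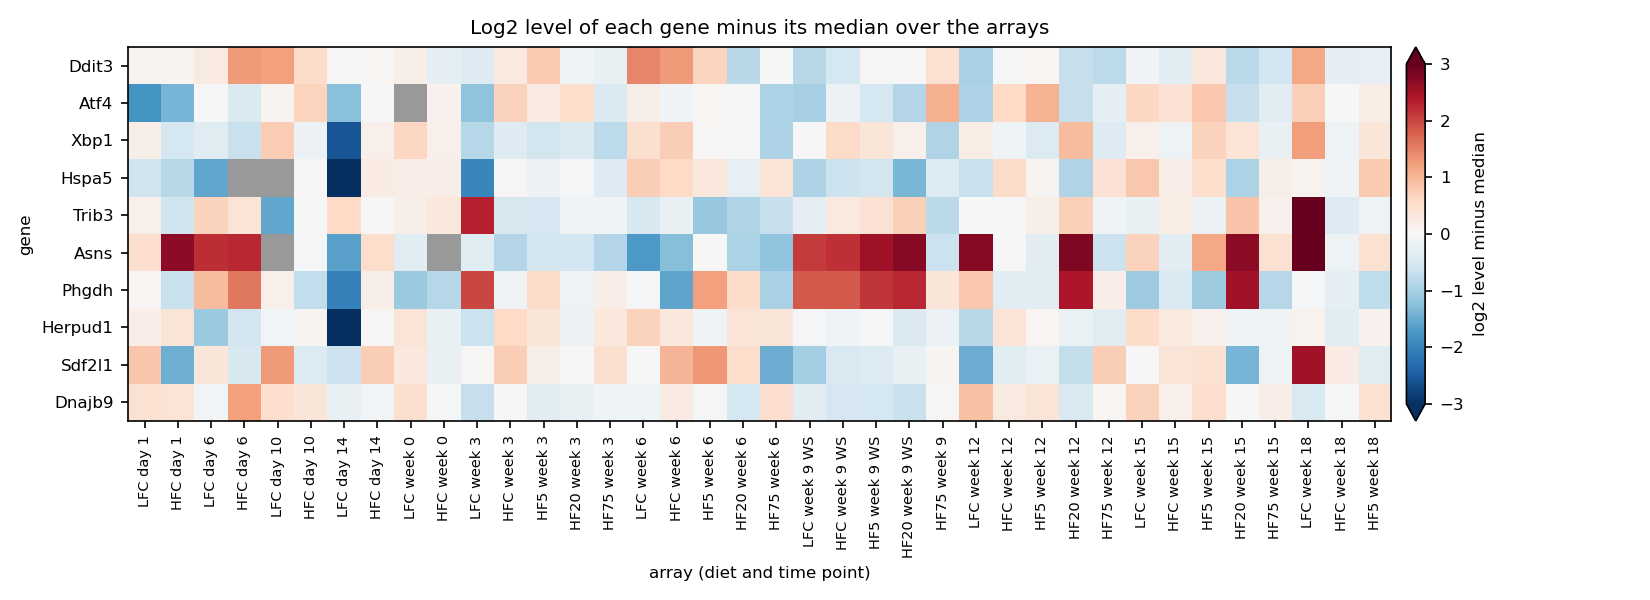
Log2 level of each gene on each of the 38 arrays minus that gene's median over the arrays, ordered by time point and diet. Red is above and blue below the median, colours end at 3 log2 units, and grey marks dropped spots. Asns and Phgdh are both high on the 4 week 9 WS arrays and on HF20 weeks 12 and 15, while LFC week 18 is high for Trib3, Asns and Sdf2l1.

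Hspa5 and Phgdh moved in opposite directions over the arrays. Correlations were computed for the 36 pairs of the other 9 genes, leaving out Asns because of its separate ranges, over the arrays other than LFC week 3 and day 14. For Hspa5 and Phgdh, Pearson's r was −0.728 and Spearman's rho −0.712 over 34 arrays (two-sided permutation p = 1e-05 for each, the smallest that 100000 permutations can give, adjusted p = 0.00036 over the 36 pairs). Without the 2 arrays farthest from the median of Hspa5, r was −0.715, and among the 20 arrays of weeks 6 to 15, with each time point's mean taken off, it was −0.796. The ER and ATF4 genes were positively related in part. Hspa5 with Herpud1 gave r = 0.574 and rho = 0.481 (adjusted permutation p = 0.00900 and 0.0317), and r = 0.395 without the 2 farthest arrays. Atf4 with Hspa5 gave r = 0.529 and rho = 0.506 over 33 arrays (adjusted permutation p = 0.0199 and 0.0261), and r = 0.636 within time points. Other pairs were not positive. Atf4 with Phgdh gave r = −0.387 (adjusted permutation p = 0.0782), and −0.538 within time points. Atf4 with Trib3 gave r = 0.004, and −0.525 within time points. Phgdh was negatively related also to Dnajb9 (r = −0.466, rho = −0.559, adjusted permutation p = 0.0250 and 0.00828) and to Herpud1 (r = −0.479, rho = −0.518, adjusted permutation p = 0.0199 and 0.0151). Ddit3 with Sdf2l1 gave r = 0.483 (adjusted permutation p = 0.0199) and rho = 0.413 (adjusted permutation p = 0.0590). Within time points r was 0.572 for Hspa5 with Herpud1, −0.645 for Phgdh with Dnajb9, −0.411 for Phgdh with Herpud1 and 0.400 for Ddit3 with Sdf2l1. The permutations took all arrays as exchangeable, although arrays of a time point mostly share a scan day. These relations are over arrays that also differ in cell makeup, whose part in them was not tested.

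Among 12212 genes well above background on all of those arrays, the patterns most like Ddit3 over 36 arrays were those of Trex1 (r = 0.772), Traf7 (r = 0.768) and Ppib (r = 0.730), the last an ER prolyl isomerase. Closest to Hspa5 over 34 arrays were Gm4148 (r = 0.876), Gm2326 (r = 0.871) and 1200016E24Rik (r = 0.869), whose probes had almost the same range of levels as each other. Closest to Asns over 34 arrays were Marchf5 (r = 0.915), Ap3s1 (r = 0.903) and Glrx5 (r = 0.899). The Asns values include its separate ranges and describe these arrays only.

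The letters WS set 4 of the 5 week 9 arrays apart in their titles (LFC, HFC, HF5 and HF20), and these arrays were compared with the 8 arrays of the same diets at weeks 6 and 15. Hspa5 was lower on them, and it was the 1 gene of the set that passed the test. Asns and Phgdh were higher on all 4 than on 7 of the 8 others, and Atf4 and Dnajb9 were lower on average. Xbp1 did not differ in mean. The same arrays carried much more adipocyte RNA and much less messenger RNA of the genes that are switched on while tissue is dissociated. That these arrays differ in cell type lists was known from earlier results when the comparison was chosen. Calls in those lists are thus no independent finding.

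On the WS arrays the Hspa5 level was 4.45 (LFC), 4.75 (HFC), 4.85 (HF5) and 4.02 (HF20). At week 6 it was 6.13, 5.99, 5.71 and 5.15 in the same order, and at week 15 it was 6.20, 5.59, 5.92 and 4.44. The ranges overlap through HF20 week 15 alone. Hspa5 fell by 1.12 on the log2 scale (SE 0.235, limma adjusted p = 0.0398). Of the 8 other arrays 3 were saturated (HF20 week 6, LFC week 15 and HF5 week 15) and 0 of the WS arrays, so the size of the fall is a lower bound. In all, 1 of the 10 genes was called lower and 0 higher, where 2.42% of all tested probes were called lower, 4.67% higher and 7.09% either way. At an unadjusted p under 0.05, 5 of the 10 genes and 29.3% of probes passed. A second probe of Dnajb9 was also called (difference −0.91, adjusted p = 0.0496), with all 4 WS levels below those of the 8 others, while its brightest probe gave a difference of −0.63 (SE 0.233, adjusted p = 0.116) and the remaining probe −0.41.

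The Asns level on the WS arrays was 4.34 (LFC), 4.43 (HFC), 4.79 (HF5) and 4.98 (HF20). At week 6 it was 0.52, 0.97, 2.24 and 1.29, and at week 15 it was 2.92, 1.90, 3.40 and 4.95 in the same order. HF20 week 15 lay within the WS range, and the other 7 arrays lay below it. The Asns difference was 2.36 (SE 0.686, limma adjusted p = 0.0647). The Phgdh level was 5.03, 5.03, 5.33 and 5.46 on the WS arrays, against 3.12, 1.61, 4.42 and 3.75 at week 6 and 2.09, 2.73, 2.12 and 5.70 at week 15. HF20 week 15 was again the exception, here above all WS arrays. The Phgdh difference was 2.02 (SE 0.566, adjusted p = 0.0591), and its other probes gave 2.27 and 2.24. Neither enzyme passed the threshold.

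Atf4 differed by −0.81 (SE 0.276, adjusted p = 0.0949), with WS levels from 0.18 to 0.99 against 0.49 to 1.98. Sdf2l1 (−0.82, adjusted p = 0.203), Ddit3 (−0.54, adjusted p = 0.451) and Herpud1 (−0.43, adjusted p = 0.190) had overlapping levels. Trib3 differed by 0.56 (adjusted p = 0.319) and Xbp1 by −0.02 (adjusted p = 0.969). Without week 6 the differences were −0.39 for Sdf2l1, −0.10 for Ddit3 and 0.13 for Trib3. Without week 15 they were −1.25, −0.97 and 0.98 in the same order. The set's median difference was −0.48, against 0.03 over all probes tested.

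Other genes of the pathway were tested on the same arrays. Of 10 regulators of the integrated stress response, 2 fell: Atf3, a stress-induced transcription factor (−4.71), and Ppp1r15a, which leads a phosphatase to eIF2α (−4.02). The median of these regulators was 0.35, with 6 of 10 above 0 and 6 of 10 at an unadjusted p under 0.05. Of 18 ATF4-type genes of amino acid metabolism and transport, 1 fell, the large neutral amino acid transporter Slc7a5 (−2.70), and the list's median difference was −0.56 (9 of 18 unadjusted). Of 10 other ATF4 or CHOP response genes, the stress cytokine Gdf15 fell (−4.59), and the lipoprotein receptor Vldlr (1.56) rose (5 unadjusted, median 0.10). The hormone Fgf21 also passed the threshold, but it was well above background on 4 of 4 WS arrays and on 2 of the 8 others, so no exact difference is given. None of 16 tested ER chaperones and folding enzymes was called (3 at an unadjusted p under 0.05), although 14 of 16 were below 0, with a median of −0.46. Calls were also absent among 11 genes of ER-associated degradation (0 called, 3 unadjusted, median 0.24) and 8 of ER entry (0 called, 0 unadjusted, median 0.00). The same held for 12 aminoacyl-tRNA synthetases (0 called, 2 unadjusted, median 0.33) and 7 genes of the stress sensors and their processing (0 called, 0 unadjusted, median −0.18). That last list, called sensors below, is Ern1, Eif2ak3, Atf6, Atf6b, Mbtps1, Mbtps2 and Rtcb. With normexp background correction the median of the 18 amino acid genes was 0.01 and that of all probes 0.21.

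Of the 8 adipocyte genes 7 rose (median difference 4.01), led by Lep (6.37) and Retn (6.30), and the list's mean level was 5.02, 4.77, 4.98 and 5.07 on the LFC, HFC, HF5 and HF20 WS arrays. Of 11 genes known to respond to tissue digestion, such as Fos (−6.10), Fosb (−5.21) and Egr1 (−4.04), 10 fell (median −3.17). Of the 5 epithelial genes Krt18 (−7.69) and Krt14 (−4.47) fell. Krt8 and Epcam were called lower as well, but each was well above background on 1 of 4 WS arrays, so their differences are bounds. Among the other cell type lists 1 of 8 macrophage, 1 of 6 fibroblast and 1 of 6 plasma cell genes fell, with 0 called of 5 endothelial, 4 B cell, 5 T cell, 5 neutrophil and 5 skeletal muscle genes (1, 2, 1, 3 and 0 at an unadjusted p under 0.05). Unadjusted, 2 macrophage, 2 fibroblast and 4 plasma cell genes passed. Median differences were −0.11 (macrophage), −0.51 (fibroblast), −1.28 (plasma cell) and −0.13 (endothelial). They were −1.45 for B cell, −1.19 for T cell, −1.53 for neutrophil and −1.41 for skeletal muscle genes. The part of these shifts in the values of Hspa5, Asns and Phgdh was not tested. Nor was their part in the called pathway genes, such as Atf3 and Ppp1r15a, which fell on the same arrays as the digestion response genes. All 4 WS arrays were scanned on 1 day of their own, so the week 9 sampling, whatever the letters WS stand for, which no label states, and the scan cannot be told apart. HF75 week 9, without these letters and from another scan day, had an Asns level of 1.60, a Phgdh level of 3.55, an Hspa5 level of 4.99 and an adipocyte list level of 2.81.

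The WS calls depended on which weeks they were set against. Without week 6, with 8 arrays in place of 12, no probe was called, and Hspa5 differed by −1.02 (adjusted p = 0.170). Asns then differed by 1.34 (limma adjusted p = 0.176), and by 3.38 without week 15. Without week 15 there were 8221 calls in place of 2223, among them Hspa5, Asns (adjusted p = 0.00132), Phgdh (adjusted p = 0.0222) and Sdf2l1 (adjusted p = 0.0200), and against weeks 6, 12 and 15 together there were 0 (Hspa5 −0.96, adjusted p = 0.157). Without the filter on dim probes the adjusted p of Hspa5 was 0.0512, and over its alternatives without a left-out week it lay between 0.0270 and 0.157.

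**Figure D2:**
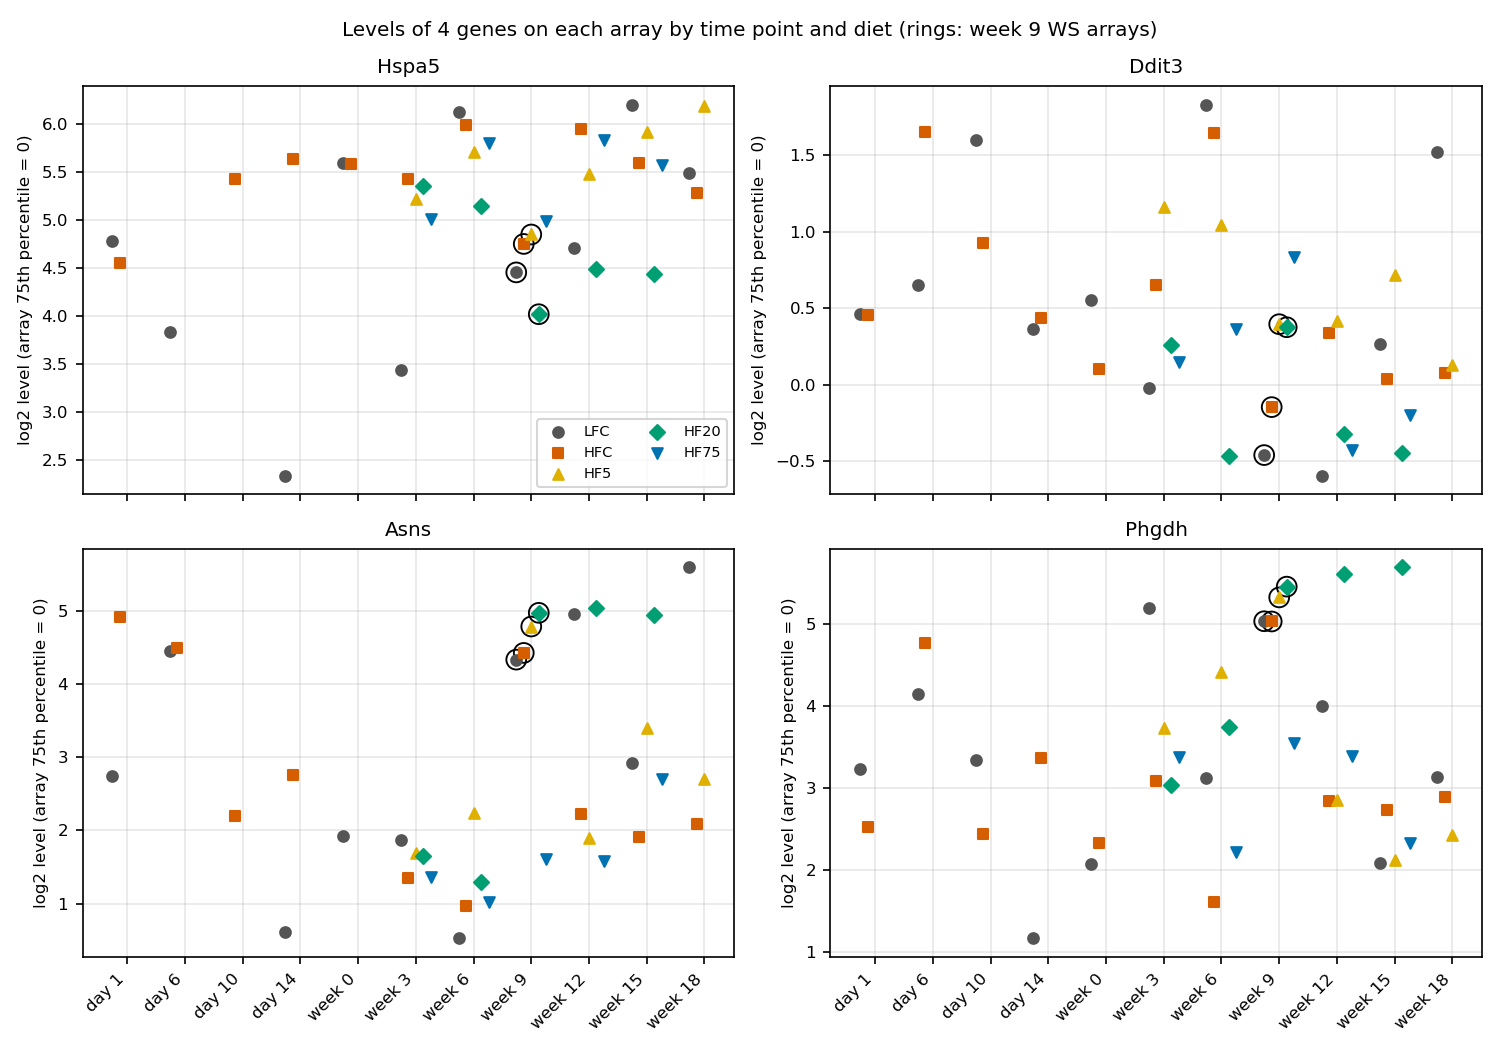
Log2 level of Hspa5, Ddit3, Asns and Phgdh on each array (array 75th percentile = 0), by labelled time point, coloured by diet. Rings mark the 4 week 9 WS arrays, where Hspa5 lies between 4.02 and 4.85 and Asns between 4.34 and 4.98. HF20 weeks 12 and 15 lie close to them in all 4 genes.

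Kal-1 at 20 µg was compared with the HFC diet over 5 time points. Asns was higher in HF20 at each time and Phgdh at 4 of 5, both most at weeks 12 and 15, and Hspa5 was lower at weeks 3, 9, 12 and 15, with no direction known at week 6. None of the 10 genes passed the test. At weeks 12 and 15 the adipocyte genes of HF20 were also far above those of HFC.

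At weeks 3, 6, 9, 12 and 15 the Asns level in HF20 was 1.66, 1.29, 4.98, 5.04 and 4.95, and in HFC it was 1.35, 0.97, 4.43, 2.23 and 1.90. HF20 was higher in 5 of 5 pairs, by 0.30 and 0.33 at weeks 3 and 6, 0.55 at week 9, and 2.81 and 3.04 at weeks 12 and 15. The mean difference was 1.41 (SE 0.525, limma adjusted p = 0.406). Phgdh was at 3.03, 3.75, 5.46, 5.61 and 5.70 in HF20 and at 3.09, 1.61, 5.03, 2.83 and 2.73 in HFC. It was higher in 4 of 5 pairs, with a mean difference of 1.65 (SE 0.521, adjusted p = 0.406), and its other probes gave 1.71 and 1.76.

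Hspa5 was at 5.35, 5.15, 4.02, 4.49 and 4.44 in HF20 and at 5.43, 5.99, 4.75, 5.94 and 5.59 in HFC. The HF20 spot of week 6 was saturated, so 5.15 is a lower bound and the sign of that pair is not known, while HF20 was lower in the other 4 pairs. The mean difference with that bound was −0.85 (SE 0.264, adjusted p = 0.406), and the levels of the 2 diets overlapped. Dnajb9 was also lower in 5 of 5 pairs (−0.41, adjusted p = 0.418). Ddit3 (−0.62), Atf4 (−0.62), Sdf2l1 (−0.62) and Herpud1 (−0.41) were each lower in 4 of 5 pairs, with adjusted p from 0.406 to 0.452. Without week 6 the Ddit3 difference was −0.25, and without week 15 that of Sdf2l1 was −0.34. Xbp1 differed by 0.08 (−0.17 to 0.29 with 1 time point left out) and Trib3 by 0.28 (0.18 to 0.52), and the second Trib3 probe by 0.60, higher in 5 of 5 pairs (adjusted p = 0.406). With limma 0 of 10 genes and 0% of all 30832 probes were called. At an unadjusted p under 0.05, 3 of 10 genes (Hspa5, Asns and Phgdh) and 11.8% of probes passed. The set's median difference was −0.41, against 0.08 over all probes.

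The pathway lists had 0 calls each in HF20. Their median differences were −0.31 for 16 ER chaperones (11 of 16 below 0), 0.40 for 17 amino acid genes, 0.16 for 12 aminoacyl-tRNA synthetases (11 of 12 above 0), 0.12 for 11 degradation genes (10 of 11 above 0), 0.11 for the other ATF4 or CHOP response genes, 0.05 for the regulators of the integrated stress response, 0.03 for ER entry and −0.01 for the sensors. With normexp the median over all probes was −0.39, that of the amino acid genes −0.31 and that of the chaperones −0.07. Genes at an unadjusted p under 0.05 numbered 4 of the 17 amino acid genes, 1 chaperone, 1 regulator and 1 other response gene, and 0 in the other lists.

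The adipocyte list level in HF20 was 1.55, −0.05, 5.07, 5.51 and 5.11 at weeks 3, 6, 9, 12 and 15, and in HFC it was 1.20, −0.75, 4.77, 1.99 and 0.31. The digestion response list was at 4.81, 4.14, 0.40, −0.69 and 2.12 in HF20 and at 4.60, 5.28, 3.03, 5.12 and 4.91 in HFC. Weeks 12 and 15, with the widest gaps in Asns and Phgdh, were those at which the adipocyte list was high in HF20 and not in HFC. At week 6 Phgdh was higher in HF20 by 2.13 with both adipocyte lists low. Of 8 adipocyte genes 0 were called (3 unadjusted, median difference 1.95), and of 11 digestion response genes 0 were called (10 unadjusted, median difference −2.26). The T cell list had a median difference of −1.68 (0 of 5 called, 2 unadjusted), the plasma cell list −1.11 (0 of 6, 3 unadjusted), the neutrophil list −0.60 (0 of 5, 2 unadjusted), the macrophage list −0.58 (0 of 8, 3 unadjusted) and the fibroblast list −0.39 (0 of 6, 2 unadjusted). The B cell list was at −1.27 (0 of 4), the endothelial list at −0.69 (0 of 5) and the epithelial list at 0.69 (0 of 5), with 0 unadjusted in each. The part of these lists was not tested. Over the 4 pairs scanned on 1 day, the differences were 1.68 for Asns, 2.07 for Phgdh and, with the same bound, −1.05 for Hspa5 (adjusted p from 0.253 to 0.265), and no pair shared a slide.

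**Figure D3:**
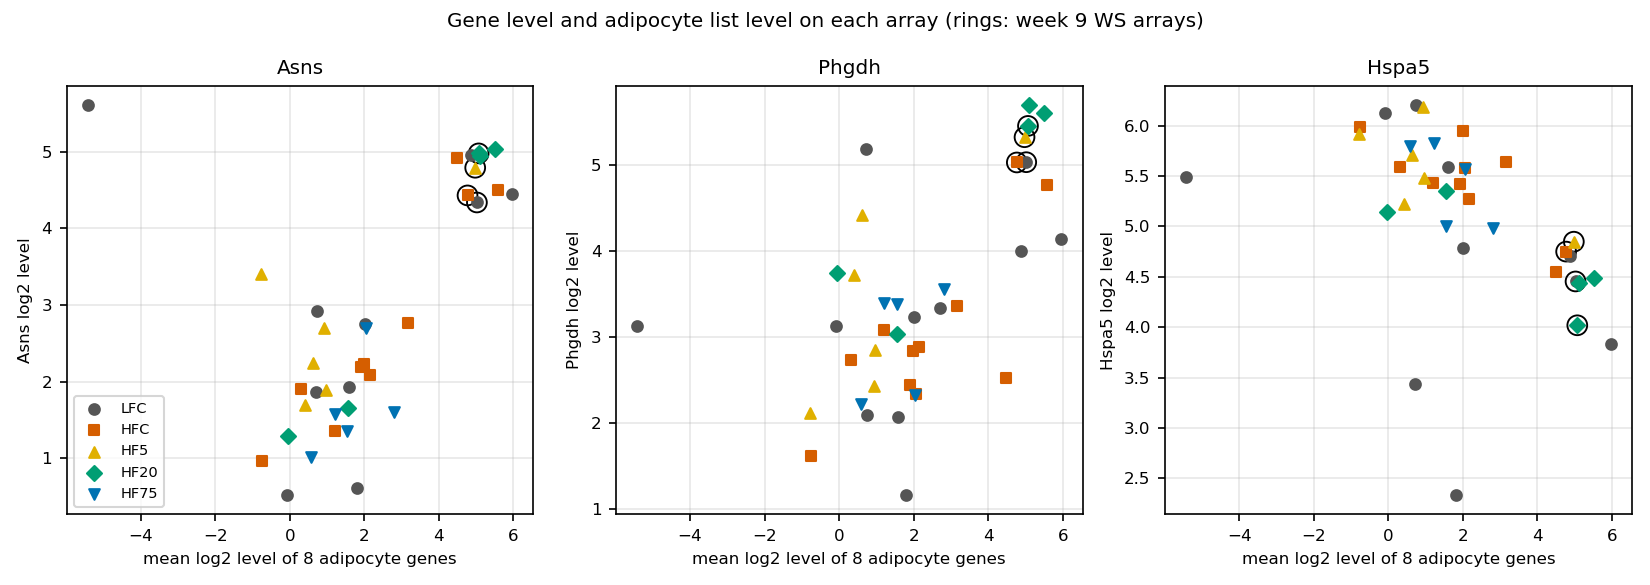
Log2 level of Asns, Phgdh and Hspa5 on each array against the mean log2 level of the 8 adipocyte genes (array 75th percentile = 0), coloured by diet, with rings on the 4 week 9 WS arrays. All arrays with an adipocyte list level above 4, none of them HF75, had Asns levels above 4, and LFC week 18, with the lowest adipocyte list level of −5.42, had the highest Asns level of 5.60.

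High levels of Asns were not limited to HF20 or to week 9. HFC day 1 had an Asns level of 4.92 and an adipocyte list level of 4.48, but a Phgdh level of 2.52. LFC day 6 had 4.45 for Asns, 4.14 for Phgdh, 3.84 for Hspa5 and 5.97 for the list. HFC day 6 had 4.50 for Asns, 4.77 for Phgdh and 5.58 for the list, with no Hspa5 value. LFC week 12 had 4.96 for Asns, 4.00 for Phgdh, 4.71 for Hspa5 and 4.87 for the list. On these arrays Asns lay in its upper range, and Phgdh did so only in part.

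LFC week 18 was different. It had the highest Asns (5.60), Trib3 (3.01), Sdf2l1 (2.47) and Xbp1 (2.09) levels of the 38 arrays, with Ddit3 at 1.52 and Atf4 at 1.90, while Phgdh (3.13) was near its median over the arrays and Hspa5 was at 5.49. The same array had the highest mean levels of the ER chaperone (2.17), ER-associated degradation (2.02) and aminoacyl-tRNA synthetase (2.04) lists. Its adipocyte, fibroblast and endothelial lists were the lowest of all arrays and its neutrophil list (5.16) the highest, and their part was not tested. HFC week 18 and HF5 week 18 had Asns levels of 2.09 and 2.70 and Trib3 levels of −0.88 and −0.64.

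Kal-1 at 5 µg was compared with HFC over 6 time points. Asns was higher in 5 of 6 pairs, and the mean differences of the other genes were smaller. None of the 10 genes passed the test. The Asns level in HF5 ranged from 1.70 (week 3) to 4.79 (week 9), with a median of 2.47. In HFC at the same weeks 3, 6, 9, 12, 15 and 18 it was 1.35, 0.97, 4.43, 2.23, 1.90 and 2.09. The ranges overlapped, and the Asns difference was 0.62 (SE 0.264, limma adjusted p = 0.965). Phgdh differed by 0.45 (SE 0.432), with overlapping levels of 2.12 to 5.33 in HF5. That rested on week 6 (4.42 in HF5 and 1.61 in HFC), without which the Phgdh difference was −0.02. Hspa5 differed by 0.06, Ddit3 by 0.21, Atf4 by 0.07, Dnajb9 by 0.06, Herpud1 by −0.11, Sdf2l1 by −0.10 and Trib3 by −0.13, and Xbp1 by less than 0.01. These differences changed in size, and most in sign, when 1 time point was left out. With limma 0 of 10 genes and 0% of 29200 probes were called, and at an unadjusted p under 0.05, 1 gene (Asns) and 5.16% of probes passed. The median difference of the 18 amino acid genes was 0.28 (0 called, 4 unadjusted) and that of all probes 0.00, and each other pathway list had 0 called, with medians from −0.01 to 0.15 and 1 unadjusted in all. The epithelial list had a median difference of 1.74 (0 of 5 called, 1 unadjusted), and the adipocyte list −0.49 (0 of 8, 1 unadjusted), the macrophage list −0.44 (0 of 8, 3 unadjusted), the fibroblast list −0.44 (0 of 6, 1 unadjusted), the endothelial list −0.38 (0 of 5, 0 unadjusted) and the digestion response list −0.42 (0 of 11, 0 unadjusted). The T cell list was at −0.63 (0 of 5), the plasma cell list at −0.47 (0 of 6) and the B cell list at −0.40 (0 of 5), with 0 unadjusted in each. Their part was not tested. Over the 3 pairs that shared a slide, Asns differed by 0.59 and Phgdh by −0.35, opposite to its overall sign.

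Kal-1 at 75 µg was compared with HFC over 5 time points. Xbp1 was lower in 5 of 5 pairs, and Asns and the brightest Phgdh probe showed no common direction. The dimmest Phgdh probe was also lower in 5 of 5 pairs. None of the 10 genes passed the test, although this was the Kal-1 dose with calls elsewhere on the array. The Xbp1 level in HF75 was 0.05, −0.10, −0.06, 0.44 and 0.59 at weeks 3, 6, 9, 12 and 15, and in HFC it was 0.44, 1.56, 1.40, 0.70 and 0.69. HF75 lay below its HFC pair each time, with gaps that were widest at weeks 6 and 9, and the ranges overlapped. The difference was −0.78 (SE 0.324, limma adjusted p = 0.337). Over the 2 pairs scanned on 1 day, those of weeks 12 and 15, it was −0.17.

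The Asns level in HF75 was 1.36, 1.02, 1.60, 1.58 and 2.70, against 1.35, 0.97, 4.43, 2.23 and 1.90 in HFC. HF75 was higher in 3 of 5 pairs, and the mean difference of −0.52 (SE 0.511) rested on week 9, without which it was 0.05. At week 9 the HFC array is a WS array, and the HF75 array, from another scan day, is not. Hspa5 differed by −0.10, Phgdh by −0.09, Ddit3 by −0.36, Atf4 by −0.47, Herpud1 by −0.29, Sdf2l1 by −0.33, Trib3 by −0.28 and Dnajb9 by 0.10. These differences changed in size when 1 time point was left out, and those of Phgdh, Sdf2l1 and Dnajb9 also in sign. Atf4 then lay between −0.90 and −0.31 and Herpud1 between −0.37 and −0.17, each higher in 1 of 5 pairs and neither called. Without week 9 Ddit3 was at −0.70, Atf4 at −0.90, Trib3 at −0.07 and Phgdh at 0.26, and without week 6 Ddit3 was at −0.13 and Sdf2l1 at 0.21. The second Trib3 probe differed by −1.01 (lower in 5 of 5 pairs, adjusted p = 0.159), and the dimmest Phgdh probe by −1.06 (lower in 5 of 5 pairs, adjusted p = 0.218). The remaining Phgdh probe differed by −0.51 (higher in 1 of 5 pairs, limma adjusted p = 0.562). With limma 0 of 10 genes and 1.01% of 28913 probes were called, and at an unadjusted p under 0.05, 1 gene (Xbp1) and 14.6% of probes passed. The set's median difference was −0.31, against −0.01 over all probes, and every pathway list had 0 calls, with medians from −0.26 (aminoacyl-tRNA synthetases) to 0.14 (sensors). The sensors had 2 of 7 genes at an unadjusted p under 0.05, and the other lists had 1 or 0. The macrophage list had a median difference of −1.13 (0 of 8 called, 5 unadjusted), the fibroblast list −0.50 (0 of 6, 4 unadjusted) and the epithelial list 1.88 (0 of 5, 2 unadjusted). The neutrophil list was at 0.87 and the skeletal muscle list at 0.74 (0 of 5 called and 0 unadjusted in each), and the part of these lists was not tested. The comparisons of HF5, HF20 and HF75 share the HFC arrays. Side by side, the Asns differences were 0.62, 1.41 and −0.52, those of Phgdh 0.45, 1.65 and −0.09, and those of Hspa5 0.06, −0.85 and −0.10, and differences between doses were not tested.

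The high fat and low fat diets were compared over 11 time points. No gene of the set passed the test, and the diets overlapped throughout. The lower average of Hspa5 and Herpud1 in LFC came from the arrays of week 3 and day 14. The Hspa5 level in LFC ranged from 2.34 (day 14) to 6.20 (week 15), with a median of 4.75, and in HFC from 4.55 (day 1) to 5.99 (week 6), with a median of 5.51. HFC was higher in 4 of the 9 pairs with values on both sides, and the difference was 0.62 (SE 0.435, limma adjusted p = 0.940). Without the pairs of week 3 and day 14 it was 0.05, and without week 18 too it was 0.09. Herpud1 differed by 0.44 with all pairs and by 0.04 without those of week 3 and day 14.

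The Asns level ranged from 0.52 to 5.60 in LFC (median 2.83) and from 0.97 to 4.92 in HFC (median 2.21). The difference was −0.32 (SE 0.581, adjusted p = 0.954), with HFC higher in 5 of 9 pairs. The pair differences were −3.51 at week 18, −2.73 at week 12, 2.17 at day 1 and 2.16 at day 14. Without week 18 alone the difference was 0.08, and without week 3, day 14 and week 18 it was −0.17. Atf4 differed by 0.49 on 10 pairs, and by 0.22 without those of week 3 and day 14. Trib3 differed by −0.49, and by 0.24 without those of week 3, day 14 and week 18. Phgdh differed by −0.26, Sdf2l1 by −0.23, Dnajb9 by 0.08, Xbp1 by −0.05 and Ddit3 by 0.00, and each of these changed in size when 1 time point was left out. Xbp1 then ranged from −0.33 to 0.09, Dnajb9 from −0.04 to 0.15 and Ddit3 from −0.10 to 0.15, so their signs turned. The other Phgdh probes differed by 0.24 (on 9 pairs) and −0.32. With limma 0 of 10 genes and 0% of 29267 probes were called, and at an unadjusted p under 0.05, 0 genes and 2.8% of probes passed. The set's median difference was −0.02, against −0.08 over all probes, and the 8 pathway lists had 0 calls, with medians from −0.37 (amino acid genes) to 0.24 (regulators) and 4 genes in all at an unadjusted p under 0.05. Of the 4 pairs that each shared a slide, 3 had values for Hspa5 (−0.01 or lower at week 0, where LFC was saturated, 0.30 at week 9, and levels of 5.43 in HFC and 3.43 in LFC at week 3) and 3 for Asns (0.05 at day 6, −0.52 at week 3 and 0.09 at week 9), where week 3 holds the dim LFC array. The digestion response list had a median difference of 1.24 (0 of 11 called, 3 unadjusted), the fibroblast list 1.27 (0 of 6, 1 unadjusted), the endothelial list 1.26 (0 of 5, 1 unadjusted), the adipocyte list 0.86 (0 of 8, 0 unadjusted) and the epithelial list −1.32 (0 of 5, 2 unadjusted). The B cell list was at −0.55 and the skeletal muscle list at 0.47 (0 of 5 called and 0 unadjusted in each), and their part was not tested.

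Levels were also compared between the 11 labelled time points over all diets. Weeks are counted from day 14, so day 14 and week 0 name the same time, and they were fitted apart as labelled. Asns and Phgdh were highest at day 6 and week 9 and lowest at week 6 or week 0, and Hspa5 was lower at week 9 than at week 6. The day 6 values come from the 2 weak arrays of that day. At day 6 Hspa5 has 1 array (LFC, 3.84), and at day 14 the LFC array that stood apart was at 2.34 and the HFC array at 5.64. None of the 10 genes passed the F-test on all 38 arrays. The mean Asns level was 4.48 at day 6 (2 arrays), 1.21 at week 6 (5 arrays, SD 0.641) and 4.03 at week 9 (5 arrays, SD 1.38, lowest 1.60 in HF75). Its fitted time point means, adjusted for diet, spanned 3.27 (limma adjusted p = 0.0906). Phgdh had means of 4.46 at day 6, 2.20 at week 0 and 4.88 at week 9, and its fitted means spanned 2.53 (adjusted p = 0.121). A second Phgdh probe was called (adjusted p = 0.0441).

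The mean Hspa5 level was 5.75 at week 6 (5 arrays, SD 0.376), 4.61 at week 9 (SD 0.385) and 5.54 at week 15 (SD 0.670), and its fitted means spanned 1.78 (adjusted p = 0.164). All week 9 arrays lay at 4.99 or lower and all week 6 arrays at 5.15 or higher, with HF20 week 6 saturated. The other 7 genes had adjusted p from 0.174 (Herpud1) to 0.860 (Sdf2l1). With limma 0 of 10 genes and 9.26% of 31422 probes were called, and at an unadjusted p under 0.05, 2 genes (Asns and Phgdh) and 34% of probes passed. Without the LFC arrays of week 3 and day 14, Hspa5 was called (adjusted p = 0.00806), as were 28.2% of probes. Without LFC week 18 as well, Hspa5 (adjusted p = 0.00872) and Asns (adjusted p = 0.0379) were called, as were 31.1% of probes. Within weeks 3 to 15, Asns was called (adjusted p = 0.0161) and Hspa5 was not (adjusted p = 0.114). Over such alternatives the adjusted p of Hspa5 lay between 0.00806 and 0.452 and that of Asns between 0.0161 and 0.207. With 1 time point left out it lay between 0.0574 and 0.486 for Hspa5 and between 0.0536 and 0.324 for Asns. Leaving out week 3 made Phgdh called (adjusted p = 0.0394). With day 14 and week 0 as 1 time point, chosen after seeing the data, 0 of the 10 genes were called (Asns adjusted p = 0.0699, Phgdh adjusted p = 0.113, Hspa5 adjusted p = 0.381).

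Of the pathway lists, the transcription factor Cebpb, the CHOP target Bbc3, the stress protein Nupr1 and the ER oxidase Ero1a were called over time. These were 1 of 9 tested regulators, 2 of 10 other response genes and 1 of 16 ER chaperones, where 9.26% of all probes were called. In these lists 5, 5 and 7 genes had an unadjusted p under 0.05, where 34% of all probes did. The fitted means of Bbc3 spanned 2.96 (highest at day 6), of Cebpb 2.62 (highest at day 10), of Nupr1 2.43 (highest at week 15) and of Ero1a 2.33 (highest at week 18). Bbc3 was lowest at day 1 and Ero1a at day 6, whose arrays were weak. Cebpb and Nupr1 were lowest at day 14, which holds the LFC array that stood apart. The lists of amino acid genes, sensors, degradation, ER entry and aminoacyl-tRNA synthetases had 0 calls, with 5 of 18, 1 of 7, 5 of 11, 3 of 8 and 1 of 12 genes at an unadjusted p under 0.05. Over all probes the median span was 2.48, and over the set it was 1.87. Of the cell type lists, 5 of 8 adipocyte, 4 of 8 macrophage, 3 of 5 epithelial, 2 of 5 neutrophil and 1 of 5 B cell genes were called over time, and their part was not tested. No scan day held more than 1 time point, so time and scan cannot be told apart. With slide as a random block the within-slide correlation was 0.235 and none of the 10 genes was called (Asns adjusted p = 0.136, Hspa5 adjusted p = 0.273).

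Where a gene had several probes, they gave different ranges but related patterns over 34 to 36 arrays. The other Phgdh probes had r of 0.842 and 0.903 with the brightest, those of Dnajb9 0.669 and 0.718, and that of Trib3 0.656. The brightest probe stands for the gene throughout.

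The upstream sequences of Hspa5, Asns and Herpud1 are shown because these 3 of the 10 genes hold a letter match to a known stress motif. RefSeq windows of 250 bases before the gene start on mouse build GRCm38.p6 were searched on both strands for the 10 genes, all of which had a window. The ER stress element (CCAAT and CCACG with 9 bases between) was in 37 of 32851 windows (0.113%) and among the set in Hspa5. The ER stress element II (ATTGG and CCACG with 1 base between) was in 10 windows (0.0304%) and among the set in Herpud1. The amino acid response type motif TGATGNAA was in 1134 windows (3.45%), and among the set in Asns and, on the opposite strand, in Herpud1. The motif TGACGTGG was in 185 windows (0.563%) and in 0 of the 10 genes. Each sequence runs 5′ to 3′ on the gene's strand and ends 1 base before the gene start, and capitals mark the match. The matches lie 65 to 47 bases before the start in Hspa5 (chr2:34771840-34772089, plus strand), 23 to 16 in Asns (chr6:7693210-7693459, minus strand), and 52 to 42 and, starting 112 bases before the start, again in Herpud1 (chr8:94386179-94386428, plus strand). A match describes the letters and says nothing about binding in these cells.
Hspa5: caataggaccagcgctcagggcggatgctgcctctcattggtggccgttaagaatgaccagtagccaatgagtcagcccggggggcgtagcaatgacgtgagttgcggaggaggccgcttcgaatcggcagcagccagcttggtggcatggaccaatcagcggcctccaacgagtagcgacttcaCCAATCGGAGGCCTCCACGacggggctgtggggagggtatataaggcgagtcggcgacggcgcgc
Asns: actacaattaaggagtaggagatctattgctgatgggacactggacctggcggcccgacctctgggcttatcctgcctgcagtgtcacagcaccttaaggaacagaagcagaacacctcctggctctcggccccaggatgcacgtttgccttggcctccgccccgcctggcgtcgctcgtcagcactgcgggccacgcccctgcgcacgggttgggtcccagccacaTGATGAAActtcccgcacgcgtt
Herpud1: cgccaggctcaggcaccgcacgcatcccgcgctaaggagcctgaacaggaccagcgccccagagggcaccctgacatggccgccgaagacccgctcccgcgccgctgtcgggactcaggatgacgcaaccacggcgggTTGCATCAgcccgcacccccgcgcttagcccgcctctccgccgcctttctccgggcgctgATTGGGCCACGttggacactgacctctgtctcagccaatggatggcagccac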

How the data were processed

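The authors labelled RNA with Cy3, hybridised it to 1-colour Agilent arrays and deposited scanner output, whose processed signal is a background-subtracted intensity in arbitrary units (per the file headers, Feature Extraction 10.5.1.1, while the submitters' processing notes name 9.1). The deposited table of 40 per-array log fold change columns gave gene names only. Intensities under 1 were set to 1, log2 was taken, each array's 75th percentile was subtracted, outlier spots were dropped, spots of a probe averaged, and values not well above background raised to the array's lowest level that was. A probe was tested where 50% or more of a group's arrays showed it well above background, using limma 3.58.1 (R 4.3.3) with time point as block, diet as a term in the F-test over time, and diet as block for the WS arrays, and p-values were adjusted by Benjamini-Hochberg over all probes (threshold 0.05). The arrays of 30 slides were scanned on 15 days. Correlations used permutation tests (Python 3.11.15, numpy 2.4.6, pandas 2.3.3, scipy 1.17.1). The brightest probe stands for a gene. All members were named, with the pathway list genes past the threshold and some of the other list genes past it. Also named were the 3 genes with the highest r to Ddit3, Hspa5 and Asns. 1 of those genes was named from its accession through RefSeq. The code was tested on simulated data. The members and lists were chosen with earlier results of these data known. So was the WS comparison, after those results had shown that the WS arrays differ in cell type lists. The 2 week 18 arrays with conflicting labels entered no comparison.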

Additional observations from a re-analysis of the deposited data

How the results depend on the processing

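The counts of called probes in HFC against LFC, HF5 against HFC and HF20 against HFC were 0 under every alternative run. HF75 against HFC had 293 calls, 145 without the filter on dim probes, 149 with probes well above background on every array, 0 over the 2 pairs scanned on 1 day (chosen after seeing the data), and 0 to 207 when 1 time point was left out (0 without week 3, 8 without week 6, 92 without week 12 and 35 without week 15). Without the time point as block, arrays not being paired, it had 1, and this changed no call of the 10 genes. Pairing by time point comes from the labels. For the time point test the called share of tested probes is given: 9.26% (2911), 14.6% with quantile normalization, 19.6% with probes well above background on every array (915 of 4672, fewer in number), 28.2% without LFC week 3 and day 14, 3.52% with slide as a random block, 31.1% without the LFC arrays of week 3, day 14 and week 18, 2.82% without the WS arrays (both chosen after seeing the data), and 0.321% (without week 6) to 35.0% (without week 3) when 1 time point was left out. The WS comparison had 2223 calls, 493 with normexp, 761 without the filter on dim probes, 0 against weeks 6, 12 and 15, and 0 (without week 6) to 8221 (without week 15). The cause was not tested. Of 934 values of the 10 genes under alternatives, 863 kept sign and side of the threshold, 55 uncalled ones changed sign, 13 became called, 3 lost the call (Hspa5 in the WS comparison) and 0 called ones changed sign. Of the 934 values, 216 are spans of the time point test, which cannot change sign. Some fits entered the tally more than once, such as those of the diet pairs without week 9. Called in addition were Hspa5 over time with quantile normalization (adjusted p = 0.0464), Phgdh over time without week 3 (adjusted p = 0.0394), and in the WS comparison Asns, Phgdh and Sdf2l1 without week 15, Asns and Phgdh on probes well above background everywhere, Phgdh with quantile normalization and Asns without diet as block. The tally leaves out a second Phgdh probe called over time (limma adjusted p = 0.0441). It also leaves out a second Dnajb9 probe called in the WS comparison (limma adjusted p = 0.0496). Pairs on 1 slide could not be run for HF20 and HF75, where no pair shares a slide. LFC week 3, with 17.2% of probes well above background, limits what the low fat arrays can show.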

Other observations

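The 2 week 18 arrays with conflicting diet labels (HF20 in one label and HF75 in another) belong to no group. Array 1 had no level for Ddit3, Trib3 and Dnajb9, and its Hspa5 level was 2.90, Asns 0.25, Phgdh 0.64, Herpud1 0.85, Atf4 0.02, Xbp1 −1.58 and Sdf2l1 −1.89. Array 2 had Hspa5 at 5.25, Asns at 2.75, Phgdh at 3.09, Herpud1 at 3.26, Atf4 at 1.55, Xbp1 at 1.42, Dnajb9 at 0.88, Ddit3 at 0.19, Sdf2l1 at 0.04 and Trib3 at −1.12. The adipocyte list level was 0.40 on array 1, over 6 measured genes, and 2.75 on array 2. On neither array did Asns reach the range above 4.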
